A study of Mus musculus with 60 samples.

Results

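Oscillospiraceae and Ruminococcaceae are families of strictly anaerobic bacteria in the order Oscillospirales, and they were followed here across stool, colon, lung and mouth of mice given plastic particles. Members are the rows of the amplicon feature table whose taxonomy line names either family. The rule found 615 of 8574 features, 318 in Oscillospiraceae under 14 genus labels and 297 in Ruminococcaceae under 22 genus labels. Together they held 797614 of 17066323 prokaryote counts (4.67%). The study gave 6 male mice nanoplastics of polyethylene terephthalate (PET, the polymer of drink bottles) by oral gavage, 0.5 mg per day in 0.1 ml for 28 days, and kept 6 unexposed male controls. Stool came from week 1 and from day 28, and the remaining samples (oral swab, lung, colon) from day 28, which makes 10 groups of 6 libraries. The labels give no strain or age and no number that ties libraries of different sites to 1 mouse. All p-values therefore measure the spread between these libraries.

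Both families ferment plant fibre, resistant starch and mucus sugars in the large intestine, and many members release butyrate, a short-chain fatty acid that colon epithelial cells burn as fuel. Ruminococcaceae holds cellulose and starch degraders such as Ruminococcus and the butyrate producers Faecalibacterium and Subdoligranulum, which are typical of the human and pig gut. Oscillospiraceae holds Oscillibacter, Colidextribacter and many lineages known only from sequences, which are common in the gut of laboratory mice. Neither family is a usual resident of the mouth or of healthy lung tissue. The features here are amplicon sequence variants of the 16S rRNA gene (V3-V4 region), named in this text by genus and by their rank in counts within the genus. No letters of these sequences were in the sources used here, so none are printed.

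The libraries held 59063 to 280575 counts in colon, 10543 to 326834 in lung, 119454 to 428830 in oral swabs and 16521 to 1083575 in stool. The 2 families supplied 220 to 15285 of these counts per library in colon, 736 to 107762 in lung, 363 to 49777 in oral swabs and 375 to 39814 in stool. Stool and oral swabs were extracted with 1 kit and lung and colon with another, so kit and site cannot be told apart. The site labels were checked against 5 genera of the mouse gut, which made 36.7 to 40.4% of the group means in stool, 72.9% (control) and 75.0% (PET) in colon, and against 4 genera of the mouse mouth, which made 87.1% and 81.1% in oral swabs. In lung those lists made 5.06% and 2.78% (gut) and 1.91% and 2.50% (mouth), while a list of 7 genera known from water and reagents, 6 of them with counts, made 6.86% ± 8.88 in control lungs and 11.9% ± 8.30 in PET lungs (SD, n = 6). A list of 9 genera common in the gut of people and pigs, 8 with counts and none of them a member, made 7.47% ± 4.65 in control lungs and 6.75% ± 5.21 in PET lungs. Its means were 0.306 to 1.02% over the stool groups, 0.618% (control) and 2.67% (PET) in colon and 0.547% and 2.88% in oral swabs. Genera of the skin made 1.32% and 2.46% in lung. The part of these genera in the values below was not tested. Shares are percent of a library's prokaryote counts, so a higher share and fewer bacteria of other kinds cannot be told apart.

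In stool, Oscillospiraceae was the larger of the families. Its share at week 1 was 2.44% ± 0.62 in controls and 3.29% ± 0.99 in PET mice, and at day 28 it was 3.67% ± 1.45 and 4.43% ± 1.27 (SD, n = 6). Ruminococcaceae made 0.813% ± 0.433 and 0.973% ± 0.227 at week 1 and 1.24% ± 0.770 and 0.991% ± 0.424 at day 28. Oscillospiraceae thus supplied on average 75.9% of the member counts of a week 1 stool library and 78.8% of those of a day 28 library. In lung the order turned, with Ruminococcaceae at 65.0% of the member counts of a library on average. Oral swabs (53.5%) and colon (52.2%) lay between.

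The share of Ruminococcaceae across the 12 lung libraries ran from 1.72 to 22.8% with a median of 6.18%. In the 12 stool libraries of day 28 it ran from 0.523 to 2.56% with a median of 0.993%. The lung range overlapped the stool range at its lower end. Oscillospiraceae in lung ran from 0.729 to 16.3% (median 2.28%), on both sides of the 2.23 to 6.41% of stool at day 28. In colon it ran from 0.0208 to 4.72% (median 0.728%) and in oral swabs from 0.0608 to 3.06% (median 0.329%). Ruminococcaceae in those sites had medians of 0.662% and 0.284%, each with 1 library above 9%: colon PET library 5 at 9.01% and oral swab PET library 2 at 9.43%.

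**Figure D1:**
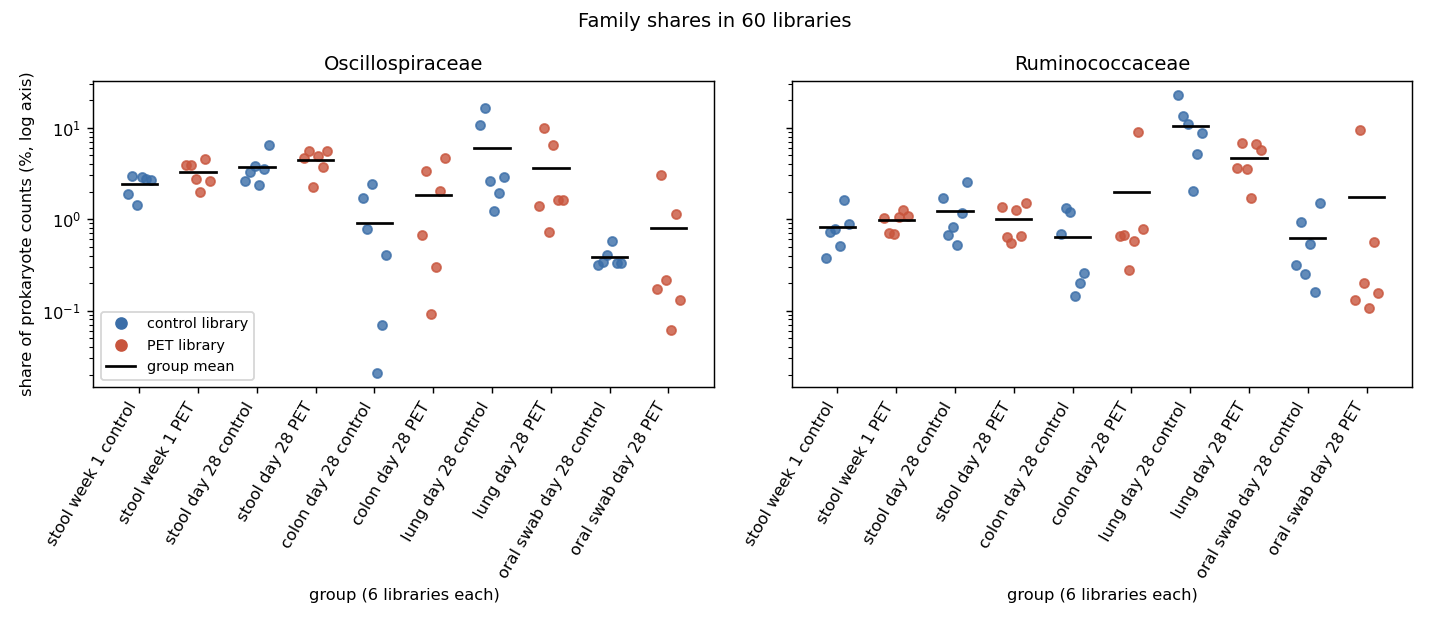
Share of prokaryote counts (percent, log axis) of each family in every library, by site, time and exposure arm; each point is 1 library and each black line is a group mean. The lung libraries reach 16.3% for Oscillospiraceae and 22.8% for Ruminococcaceae, and 1 colon and 1 oral swab library of the PET arm lie above 9% for Ruminococcaceae.

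Between sites, differences were tested with edgeR's quasi-likelihood test on library totals, with the exposure arms averaged and Benjamini-Hochberg adjustment over all families or genera of that comparison. Ruminococcaceae was higher in lung than in stool by 2.66 on the log2 scale (SE 0.49, adjusted p = 1.2e-05) and higher in lung than in colon by 2.64 (SE 0.75, adjusted p = 0.00116). Against stool it did not pass in colon (log2 0.02, SE 0.65, adjusted p = 1.0) or in oral swabs (log2 -0.09, SE 0.64, adjusted p = 0.948). Oscillospiraceae was lower than in stool in colon (log2 -1.63, SE 0.64, adjusted p = 0.0245) and in oral swabs (log2 -2.87, SE 0.54, adjusted p = 2.0e-05). Its lung share did not pass against stool (log2 0.20, SE 0.50, adjusted p = 0.718) and was higher than in colon (log2 1.84, SE 0.77, adjusted p = 0.0251). That last call was lost without lung control library 2 (log2 1.53) or lung PET library 2 (log2 1.52), and without oral swab PET library 2 Ruminococcaceae was lower in oral swabs than in stool by -1.56 and passed. These calls stand among many: 60.5% of all tested families passed between colon and stool, 84.3% between lung and stool, 84.7% between oral swab and stool and 74.6% between lung and colon.

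The scaling decided most of the family values. Against stool, the lung excess of Ruminococcaceae held with TMM scaling (2.15) and with reduced totals, which leave out Helicobacter, Muribacter and Streptococcus (2.63). It turned with DESeq2's size factors to -0.31, which did not pass, and with centred log ratios to -1.73, which passed (limma adjusted p = 0.0166). Those last 2 scalings moved the median difference of all tested genera in that comparison by -2.35 and -6.01. Oscillospiraceae, not called between lung and stool on library totals, was lower in lung with both of them (log2 -2.79, DESeq2 adjusted p = 4.8e-07, and log2 -4.66, limma adjusted p = 5.8e-07).

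Depending on the scaling, Ruminococcaceae passed in colon and oral swabs in opposite directions. With TMM it was higher than in stool by 2.09 in colon (edgeR adjusted p = 0.00124) and 2.84 in oral swabs (0.000117), and with reduced totals by 1.70 (0.0031) and 1.97 (0.0009). With centred log ratios it was lower by -1.59 (limma adjusted p = 0.0103) and -2.55 (0.00017). Oscillospiraceae in oral swabs turned to 0.055 with TMM and was -0.63 with reduced totals (adjusted p = 0.0683), and in colon it became -0.29 and -0.43, and none of these 4 values passed. TMM moved the median of all genera by 2.76 in oral swabs and 1.48 in colon. The colon deficit of Oscillospiraceae did not pass in control libraries alone (log2 -2.02) or PET libraries alone (log2 -1.25).

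Both lung excesses over colon rested on library totals. That of Ruminococcaceae was 0.95 with TMM (adjusted p = 0.206), 0.93 with reduced totals (0.204), 0.30 by DESeq2 (0.632) and 0.20 on centred log ratios (0.93). That of Oscillospiraceae was 0.17 and 0.60 in the first 2 of these settings and turned to -0.44 and -0.63 in the last 2. None of these 8 values passed. With PET libraries alone the excesses were 1.23 (adjusted p = 0.282) and 0.96 (0.407), and with control libraries alone both passed. A few genera dominate some sites: Helicobacter had a median of 66.8% in colon, Muribacter 49.99% and Streptococcus 28.7% in oral swabs.

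At genus level 8 of 23 tested member genera passed between colon and stool, against 50.6% of all tested genera. Of the 8, 5 were higher in colon (30.6% of all genera were) and 3 lower (20%). Between lung and stool 18 of 27 passed against 81.4% of all genera, 13 higher (63.9% of all) and 5 lower (17.5%). Between oral swab and stool 17 of 25 passed against 82.4%, 6 higher (48.3%) and 11 lower (34.1%). Between lung and colon 16 of 26 passed against 70.3%, 14 higher (62.6%) and 2 lower (7.69%). Over both directions together, the member share was below the background share in each comparison; the share of lower calls alone was close to the background in lung and above it in oral swabs. Without colon PET library 4 the colon count was 5. A genus with no count at 1 site of a comparison entered the fit through the other site alone. It could only come out higher at that other site. Such genera are among these calls, and the same rule applied to genera outside the 2 families. The median member genus differed by -0.79 in colon, 2.50 in lung and -2.03 in oral swabs against stool, where the median of all genera was -0.22, 7.08 and 3.10, and by 2.98 between lung and colon, where it was 4.19.

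The split between higher and lower calls moved with the scaling. Each scaling also shifts the genera outside the 2 families. Their calls in the same settings are not given here, so the splits below do not set the members apart. Between colon and stool TMM gave 6 higher and 1 lower, and so did the reduced totals. DESeq2 gave 4 and 4 there, and centred log ratios 6 and 10. Between lung and stool TMM and the reduced totals gave 13 and 5 again, DESeq2 7 and 8, and centred log ratios 6 and 10. For oral swab against stool the splits were 12 and 1 (TMM), 9 and 6 (reduced totals), 5 and 11 (DESeq2) and 5 and 13 (centred log ratios). For lung against colon they were 6 and 4, 9 and 3, 5 and 3, and 2 and 4 in the same order. With control libraries alone no member genus passed between colon and stool (0 of 23, with 2 at an unadjusted p under 0.05), against 6 of 22 with PET libraries alone.

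**Figure D2:**
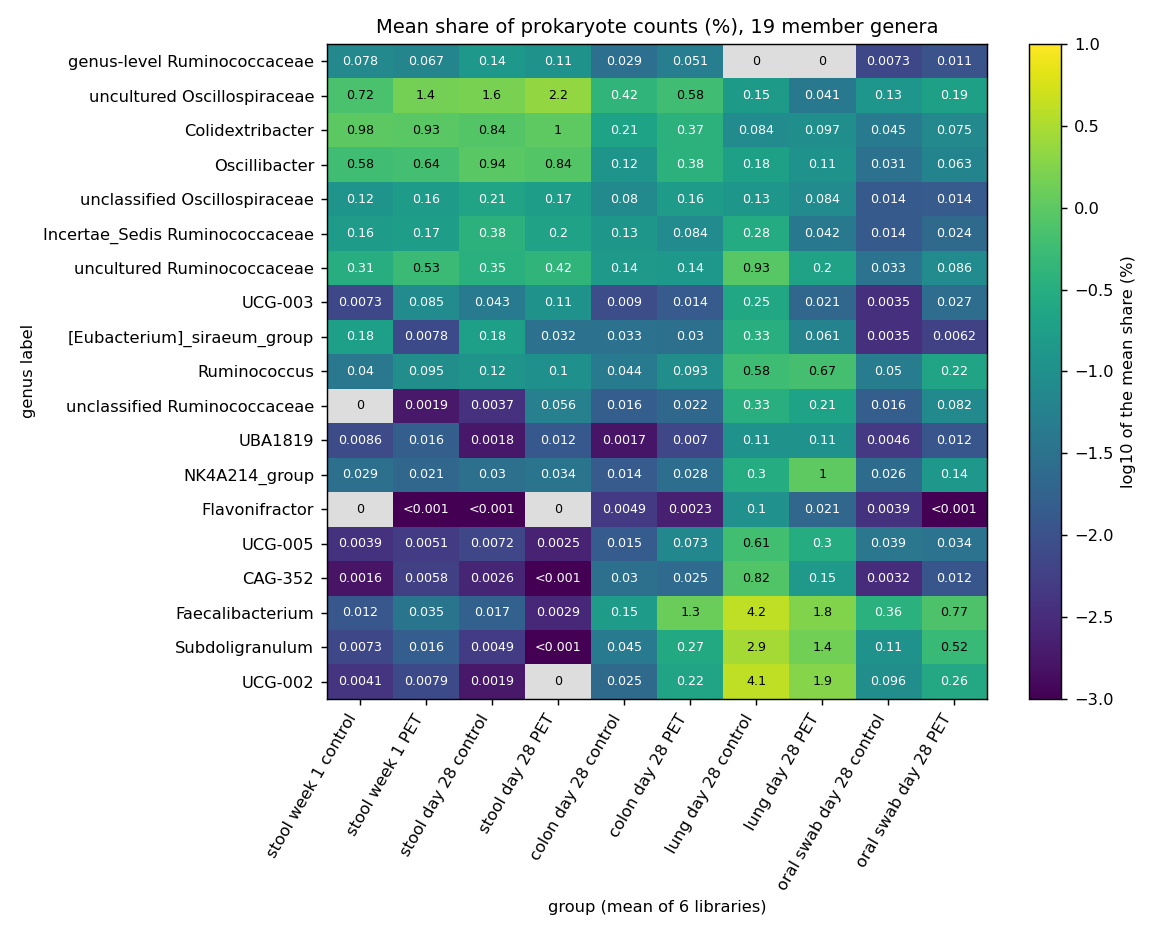
Mean share of prokaryote counts (percent, printed in each cell; colour on a log10 scale, grey where 0) of the 19 member genus labels with a group mean of at least 0.05%, in the 10 groups of 6 libraries, ordered by their lung against stool difference. Faecalibacterium, Subdoligranulum and UCG-002 at the bottom are bright in lung and dark in stool, and Colidextribacter, Oscillibacter and the uncultured Oscillospiraceae near the top are bright in stool.

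Faecalibacterium, a butyrate producer that is among the most abundant genera of the human colon, was the leading member genus in 5 of 12 lung libraries and 6 of 12 colon libraries, and in none of 24 stool libraries. In lung it ran from 1.08 to 10.04% in controls (median 3.55%) and from 0.427 to 3.20% in PET mice (median 1.59%). In stool at day 28 it ran from 0 to 0.0893% in controls (median 0.00416%) and from 0 to 0.00552% in PET mice (median 0.00351%). Every lung library lay above every stool library. Colon libraries ran from 0.0172 to 6.72% (median 0.0968%) and oral swabs from 0.0201 to 4.28% (median 0.118%). Faecalibacterium was higher than in stool by 5.95 in colon (SE 1.20, adjusted p = 4.3e-05), 8.56 in lung (SE 1.19, adjusted p = 9.5e-08) and 6.203 in oral swabs (SE 1.24, adjusted p = 7.8e-05). These 3 calls held under all 7 alternative scalings, filters and tests and on leaving out each of the 24 libraries in turn. In control libraries alone the colon difference was 3.16 and did not pass (adjusted p = 0.302), while lung and oral swabs passed in each arm.

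The Faecalibacterium label covers 22 features, of which 13 were seen in 1 library only. Its largest feature, Faecalibacterium feature 1 (identifier beginning 4516aa60), averaged 1.27% in lung, 0.317% in colon and 0.226% in oral swabs, each with 11 of 12 libraries positive. In stool at day 28 it averaged 0.00317% and was found in 3 of 12 libraries. Faecalibacterium feature 2 (bbae6ed1) and feature 3 (22f4ee9a) had the same order of sites, with lung means of 0.598% and 0.758%. The 3 features were higher in lung than in stool by 9.004, 7.54 and 10.45, in colon by 6.23, 4.63 and 7.73, and in oral swabs by 6.61, 5.35 and 7.76, all past the threshold. Of the Faecalibacterium counts pooled over the 12 lung libraries, 89.5% lay in features that were also seen in at least 3 stool libraries. The pooled values were 78.6% in colon and 82.6% in oral swabs.

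Subdoligranulum, a relative of Faecalibacterium that also makes butyrate, was the leading genus in 4 lung libraries. It ran from 0.0956 to 8.58% in control lungs (median 1.34%) and from 0.116 to 1.89% in PET lungs (median 1.66%). It was detected in 3 of 12 stool libraries at day 28, at 0.0281% or less, and in all 12 colon libraries (0.00395 to 1.37%) and all 12 oral swabs (0.0131 to 2.90%). It was higher than in stool by 6.46 in colon (SE 1.52, adjusted p = 0.00025), 10.65 in lung (SE 1.47, adjusted p = 9.3e-08) and 7.63 in oral swabs (SE 1.48, adjusted p = 5.7e-05), and each call held in the same 7 alternatives and all 24 fits without a library, but for colon and oral swabs in 1 of the 2 arms taken alone. Its features 1 (b6a1cfc8) and 2 (c6fdf631) averaged 0.805% and 1.05% in lung and 0.00118% and 0.00129% in stool at day 28. Feature 1 has the classifier confidence 0.719, near the lowest of any member (0.701), while feature 2 has 1.0.

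Oscillibacter, known for making butyrate and valerate, showed the opposite order of sites. Its stool share at day 28 ran from 0.509 to 1.19% (median 0.878%), against 0 to 0.736% in lung (median 0.0627%), 0 to 1.11% in colon (median 0.0892%) and 0.0079 to 0.172% in oral swabs (median 0.028%). Every oral swab lay below every stool library. It was lower than in stool by -2.65 in lung (SE 0.90, adjusted p = 0.0067) and by -4.33 in oral swabs (SE 0.60, adjusted p = 3.1e-07). The colon difference of -2.07 (SE 0.92) passed narrowly, and it was lost on leaving out 19 of the 24 libraries. Its largest feature was nearly missing from lung: Oscillibacter feature 1 was found in 12 of 12 stool libraries of day 28 at a mean of 0.257% and in 1 of 12 lung libraries.

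Flavonifractor, which also breaks down flavonoids, was detected in 1 of 12 stool libraries of day 28, 6 of 12 lung libraries (0 to 0.419%), 3 colon libraries and 3 oral swabs, and was higher than in stool by 8.18 in lung (SE 1.86, adjusted p = 0.00014), 4.44 in colon (SE 1.497, adjusted p = 0.0084) and 3.76 in oral swabs (SE 1.48, adjusted p = 0.022). With 1 positive stool library, 1 stool arm was at 0. The sizes of these 3 differences thus depend on how edgeR treats a group at 0. The colon value was 1.58 and did not pass without colon PET library 4. The oral value did not pass without oral swab PET library 2 (1.44) or control library 5 (2.19). Intestinimonas, known for making butyrate from lysine, was detected in 7 stool and 6 lung libraries of day 28 but in 1 oral swab, where it was lower than in stool by -7.20 (SE 1.78, adjusted p = 0.00098). With 1 positive oral swab, the same limit holds for the size of this difference. Anaerotruncus, found in all 12 stool libraries of day 28, was in 4 libraries of each other site and was lower in oral swabs by -3.38 (SE 1.33, adjusted p = 0.021). Of the 6 butyrate-producing genera tested, 3 were higher and 1 lower than stool in colon and lung, and 3 were higher and 3 lower in oral swabs, where 50.6% (colon), 81.4% (lung) and 82.4% (oral swab) of all tested genera passed. Oscillospira and Pseudoflavonifractor, the remaining named producers, had 2 and 9 counts in all.

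Among the fibre and starch degraders, CAG-352, a lineage known from sequences, was uneven between sites. It was found in 4 of 12 stool libraries of day 28 (0 to 0.0131%) and in 10 of 12 lung libraries (0 to 3.71%, median 0.125%) and 10 of 12 colon libraries (0 to 0.0919%, median 0.0231%). It was higher than in stool by 8.47 in lung (SE 1.62, adjusted p = 1.3e-05) and 4.81 in colon (SE 1.63, adjusted p = 0.0086), and the colon call held in all 7 alternatives. In oral swabs it did not pass (log2 2.67, SE 1.43, adjusted p = 0.084). Ruminococcus itself, which degrades cellulose and resistant starch, had a median of 0.542% in lung and 0.0033% in stool at day 28, but stool reached 0.501% and lung began at 0, and its difference of 2.50 (SE 1.19, adjusted p = 0.051) did not pass. It was higher in lung than in colon by 3.29 (SE 1.22, adjusted p = 0.013). At feature level 9 of its 11 tested features were higher and 1 lower in lung than in stool, where 90.7% of all tested features passed. The [Eubacterium]_siraeum_group, a plant polysaccharide degrader, passed between sites only in oral swabs, where it was lower than in stool by -4.04 (SE 1.53, adjusted p = 0.018). That call was lost without stool PET library 4 (-2.36) or control library 6 (-3.19) of day 28.

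UCG-002, an uncultured group of Oscillospiraceae, was found in 1 of 12 stool libraries of day 28, at 0.0111%. In lung it was in all 12 libraries, from 0.117 to 13.7% in controls (median 1.33%) and from 0.190 to 8.71% in PET mice (median 0.666%). Every lung library thus exceeded every stool library of day 28. It was in 11 colon libraries (highest 1.12%) and in all 12 oral swabs (0.00292 to 1.48%). UCG-002 was higher than in stool by 7.99 in colon (SE 1.63, adjusted p = 4.7e-05), 13.17 in lung (SE 1.58, adjusted p = 1e-08) and 9.27 in oral swabs (SE 1.64, adjusted p = 2.6e-05), and higher in lung than in colon by 5.25 (SE 1.06, adjusted p = 1.7e-05). Each of those 4 calls held in all 7 alternatives and in all 24 fits without a library, though the 2 colon comparisons passed in 1 arm of 2 taken alone. UCG-002 feature 1 averaged 1.68% in lung, with 9 of 12 libraries positive, and 0.000291% in stool at day 28.

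UCG-005 followed the same order with a smaller gap, from 0.0461 to 1.99% in all 12 lung libraries (median 0.30%) against 0 to 0.0222% in stool at day 28. It was higher than in stool by 6.64 in lung (SE 1.43, adjusted p = 5.9e-05) and 3.10 in oral swabs (SE 1.30, adjusted p = 0.029), where the call was lost without oral swab PET library 2 (1.92, adjusted p = 0.147). NK4A214_group, another sequence-defined Oscillospiraceae lineage, was in all 12 stool libraries of day 28 (0.00538 to 0.0639%) and in 11 lung libraries (0 to 5.56%, median 0.140%), and was higher in lung by 4.11 (SE 1.12, adjusted p = 0.00089). With centred log ratios this difference turned to -1.44. UBA1819 was higher in lung by 4.52 (SE 1.49, adjusted p = 0.0051), but it turned to -5.02 when only features of classifier confidence 0.9 or more were kept. DTU089, at 0 in all stool and colon libraries, was found in 4 lung libraries and was at least 143-fold higher there than the 3 counts that a stool group at 0 allows. It entered these fits through lung alone, so it could only come out higher there. The bound was 84.6-fold without lung control library 1, and edgeR's call was lost without lung PET library 1. UCG-003 did not pass between any sites.

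The uncultured Oscillospiraceae, rows that the reference names only as uncultured, were the largest member label of stool and led in 13 of 24 stool libraries. They ran from 0.543 to 4.27% in stool at day 28 (median 1.57%), 0 to 2.10% in colon (median 0.213%), 0.0342 to 0.664% in oral swabs (median 0.115%) and 0 to 0.346% in lung (median 0.0478%). No lung library reached the lowest stool library of day 28. They were lower than in stool by -4.57 in lung (SE 0.96, adjusted p = 4.5e-05), by -3.61 in oral swabs (SE 0.56, adjusted p = 2e-06) and by -1.92 in colon (SE 0.81, adjusted p = 0.039); the colon call was lost in 9 of 24 fits without a library, and the oral difference was 0.30 with TMM scaling. Of their 28 tested features 26 were lower and 1 higher in lung than in stool, beside the 90.7% of all tested features that passed. Uncultured Oscillospiraceae feature 4 (dd805869) averaged 0.173% in stool at day 28 with 10 libraries positive and had no count in lung.

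The uncultured Ruminococcaceae had closer shares, with medians of 0.374% in stool at day 28, 0.181% in lung, 0.0313% in colon and 0.0215% in oral swabs. They did not pass between lung and stool (log2 0.18, SE 0.86, adjusted p = 0.89), although 13 of their 18 tested features were lower and 4 higher in lung (90.7% of all tested features passed). In oral swabs they were lower by -2.85 (SE 0.71, adjusted p = 0.00091; 0.49 with TMM scaling). Incertae_Sedis Ruminococcaceae, a label of uncertain placement, was likewise lower in oral swabs (log2 -3.93, SE 0.77, adjusted p = 5.9e-05) and did not pass in lung (log2 -1.33, SE 0.96, adjusted p = 0.2). Unclassified Ruminococcaceae were higher in lung than in stool (log2 4.18, SE 1.48, adjusted p = 0.0088), and unclassified Oscillospiraceae were lower in oral swabs (log2 -3.77, SE 0.91, adjusted p = 0.00065).

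Colidextribacter, an anaerobe isolated from the mouse and human gut, led in 10 of 24 stool libraries. Its share at day 28 ran from 0.726 to 1.45% in stool, against 0 to 0.495% in lung (median 0.0225%), 0 to 1.19% in colon (median 0.136%) and 0.00848 to 0.301% in oral swabs (median 0.0443%). The stool libraries lay above all lung and oral libraries. It was lower than in stool by -3.36 in lung (SE 1.02, adjusted p = 0.0026) and -4.00 in oral swabs (SE 0.61, adjusted p = 1.7e-06), and did not pass in colon (log2 -1.73, SE 0.90, adjusted p = 0.097). Of its 27 tested features 23 were lower and 2 higher in lung, against 90.7% of all tested features passing.

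The rows given as Ruminococcaceae at genus level were in 11 of 12 stool libraries of day 28 (median 0.0885%) and in 9 colon libraries, and had no count in any lung library. The stool share was at least 428-fold, and the colon share at least 152-fold, above the 3 counts that the lung group at 0 allows; the colon bound was 89.1-fold without colon PET library 2. Both calls held in all 7 alternatives. Harryflintia was in all 12 stool libraries and 1 lung library (log2 -5.85, SE 1.65, adjusted p = 0.0014). In lung 1 arm was thus at 0, and the size depends on how edgeR treats a group at 0. Paludicola, in 7 stool libraries of day 28 and no colon library, was at least 9.92-fold lower in colon. Negativibacillus, Anaerofilum and Fournierella had no count in stool: Negativibacillus was found in 2 oral swabs and 4 lung libraries, Anaerofilum in 3 lung libraries and Fournierella in 3 oral swabs. Genera of this paragraph with no count at 1 site could only come out higher at the site with counts. Each bound moved with 1 library. In oral swabs Negativibacillus was at least 158-fold higher than in stool, and 9.52-fold without PET library 2, which held 318 of its 336 counts there. In lung it was at least 40.9-fold higher, and 22.5-fold without control library 3. Anaerofilum was at least 117.9-fold higher in lung, and 37.8-fold without control library 1. Fournierella was at least 74.0-fold higher in oral swabs, and 35.97-fold without PET library 2. Candidatus_Soleaferrea was in 2 stool and 4 lung libraries and was higher in lung by 5.15 (SE 1.71, adjusted p = 0.0055), but by 1.92 without lung PET library 5 (adjusted p = 0.953). The other 8 member genera had group means of at most 0.00694%. None had a count in at least 3 libraries of a comparison, so the low-count filter left them out and they were not tested. Among them, Phocea and UCG-007 were each found in 2 lung libraries and in no stool library of day 28.

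Among single features, 76 of 168 members passed between colon and stool (46.7% of all tested features), 178 of 186 between lung and stool (90.7%), 146 of 169 between oral swab and stool (84%), and 71.2% of tested members between lung and colon (67.7%). Of the members that passed, 27, 57, 34 and 40 were higher in these comparisons, and the rest lower.

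Sites shared member features to different degrees. Of the 222 member features seen in colon, 171 (77.0%) were also seen in stool, against 57.6% of all prokaryote features of colon. Of the 220 in oral swabs 56.4% were also in stool, against 39.1% of all, and of the 241 in lung 28.2%, against 14.2%. Among features found in at least 3 libraries of the site the shares were 98.8% in colon, 92.9% in oral swabs and 73.8% in lung, against 98.1%, 87.7% and 64.6% of all prokaryote features. By presence, 26.5% of the members were seen in stool alone, 20.3% in lung alone, 8.62% in oral swabs alone and 5.69% in colon alone, and 8.46% in all 4 sites. Over all prokaryote features these shares were 27.8%, 34.3%, 10.7%, 7.07% and 4.37%. Of all members, 331 (53.8%) were found in 1 library, against 73.8% of all prokaryote features.

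**Figure D3:**
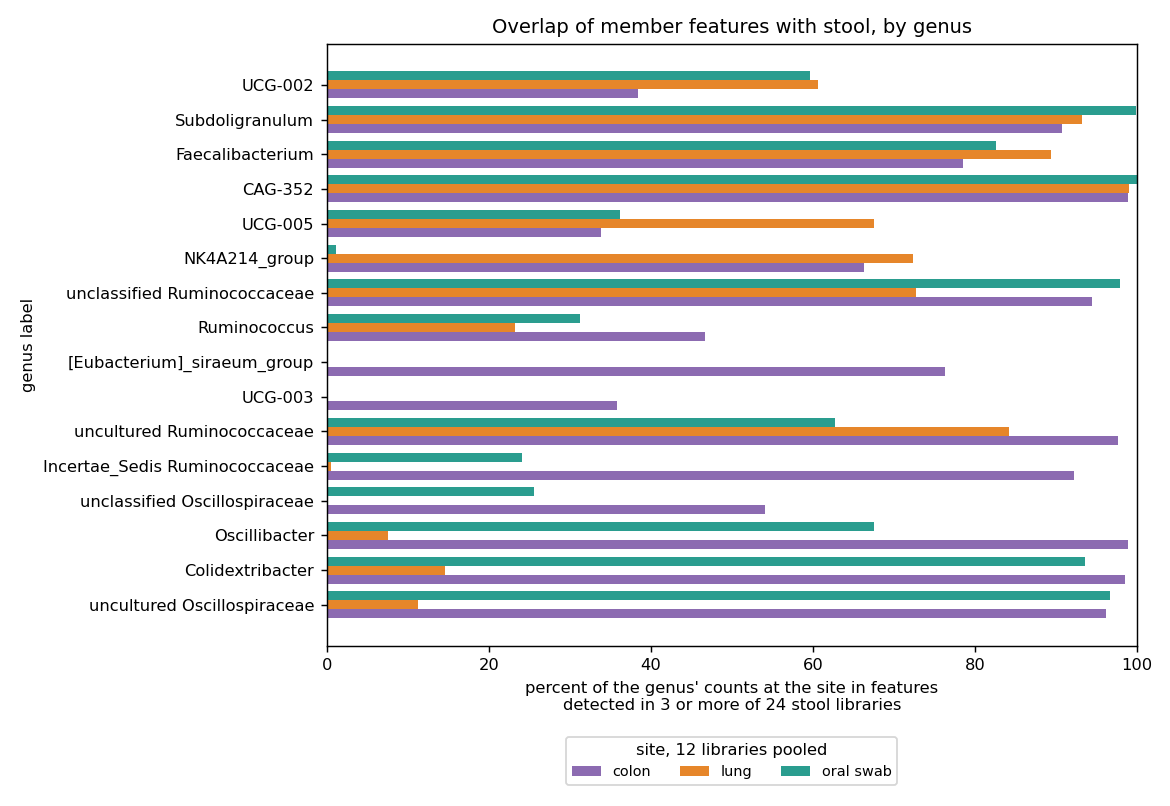
Percent of each genus's counts in colon, lung and oral swab (bars, 12 libraries pooled per site, genera with at least 100 counts at all 3 sites) that lie in features also found in at least 3 stool libraries. The lung bars are long for Subdoligranulum (93.2%) and Faecalibacterium (89.5%) and short for Colidextribacter (14.5%), the uncultured Oscillospiraceae (11.3%) and Oscillibacter (7.6%). Lung control libraries 1 and 2 held 107762 and 65652 of the 209679 member counts pooled for lung.

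Weighted by counts, 88.3% of the member counts of colon, 72.1% of those of oral swabs and 70.9% of those of lung lay in features found in at least 3 stool libraries. The pooled oral value was 79.4% without oral swab PET library 2, which alone held 49777 member counts. Per library the median member share in colon was 86.4% in controls and 84.9% in PET mice, below the 99.3% and 95.5% over all features. In lung it was 62.9% and 74.4%, above the 47.8% and 58.1% over all features, and in oral swabs 76.5% and 90.03%, against 84.6% and 83.2%. In lung the families differed: 80.8% for Ruminococcaceae and 56.0% for Oscillospiraceae. Within Ruminococcaceae of lung, CAG-352 (98.99%), Subdoligranulum (93.2%) and Faecalibacterium (89.5%) stood against Ruminococcus (23.3%), Incertae_Sedis Ruminococcaceae (0.5%) and the [Eubacterium]_siraeum_group (0%). Within Oscillospiraceae of lung, NK4A214_group (72.4%), UCG-005 (67.6%) and UCG-002 (60.6%) stood against Colidextribacter (14.5%), the uncultured label (11.3%) and Oscillibacter (7.6%). In colon and oral swabs the last 3 labels had 67.5 to 98.95% of their counts in stool features. In these pooled counts, most Faecalibacterium and Subdoligranulum counts of lung lay in variants also found in stool. Most pooled lung counts of the main stool genera lay in variants found in fewer than 3 stool libraries.

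Some libraries stood apart from the rest of their group, with more than 1 member genus high at once. Oral swab PET library 2 held 4.28% Faecalibacterium, 2.90% Subdoligranulum and 1.48% UCG-002, where the next oral swab held 0.947%, 0.451% and 0.319%. The same library held 4.796% Megasphaera and 3.50% Dialister, genera of the gut of people and pigs, whose medians over oral swabs were 0 and 0.00977%. Colon PET library 5 held 6.72% Faecalibacterium, 1.37% Subdoligranulum and 1.12% UCG-002, with 5.94% Dialister and 0.906% Megasphaera. Lung control library 2 held 10.04% Faecalibacterium, where the next control lung held 3.91%, with 14.7% Prevotella, and lung control library 1 held 3.71% CAG-352, where the next held 0.678%. The highest lung values of Subdoligranulum (8.58%, control library 1) and UCG-002 (13.7%, control library 2) did not stand apart in this way, with 5.49% and 7.99% next to them. A source common to these genera was not tested.

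In stool the traces of Faecalibacterium were highest in the libraries with the most Burkholderia-Caballeronia-Paraburkholderia, a genus known from water and reagents. Stool PET library 6 of week 1 held 0.132% Faecalibacterium and 0.616% of that genus, and stool control library 1 of day 28 held 0.0893% and 0.980%. The other stool libraries held at most 0.0233% Faecalibacterium and at most 0.0183% of that genus. Colon control library 2 held 0.654% and 3.56%, second and first among colon libraries. The part of this genus in the Faecalibacterium values was not tested. Lung libraries held 0.747 to 20.8% of it, and the lung library with the most Faecalibacterium was not among those with the most of it.

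**Figure D4:**
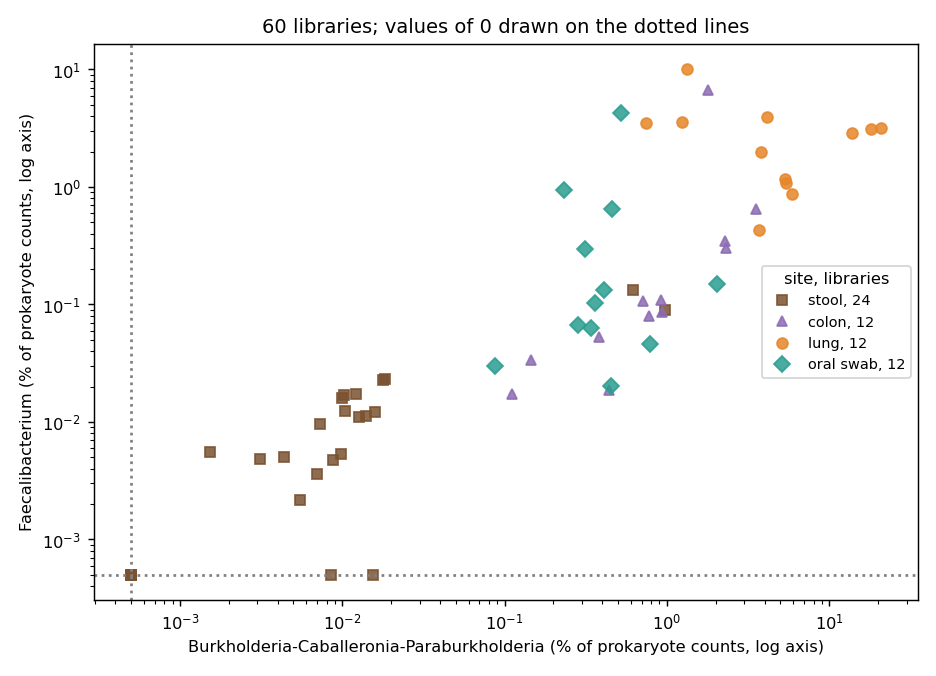
Faecalibacterium (vertical) against Burkholderia-Caballeronia-Paraburkholderia (horizontal), both in percent of prokaryote counts on log axes, with 1 point per library (24 stool, 12 colon, 12 lung, 12 oral swab) and values of 0 drawn on the dotted lines. Faecalibacterium in lung lies between 0.427 and 10.04%, above all stool libraries, whose highest are the 0.132% and 0.0893% of the libraries that also hold the most Burkholderia-Caballeronia-Paraburkholderia in stool.

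Time in stool was compared in controls and PET mice separately, as day 28 against week 1. No member genus of 22 passed in either arm or in the interaction of exposure and time, where 0% of all 151 tested genera passed with edgeR. At an unadjusted p under 0.05 there were 3 member genera in each of the 3 tests. At feature level 0 of 159 members passed, beside 0% of all 964 tested features. Of the members 29, 16 and 20 had an unadjusted p under 0.05. Unadjusted counts over all genera or features are not given beside these, so they do not set the members apart. In PET mice UCG-002 went from 0.00788% ± 0.00857, with 5 of 6 libraries positive, to 0 in all 6 (edgeR adjusted p = 0.095). Subdoligranulum in PET mice had means of 0.0156% ± 0.0150 at week 1 and 0.000266% ± 0.000651 at day 28 (log2 -5.37, SE 1.86, adjusted p = 0.118), and Faecalibacterium had 0.0354% ± 0.0476 and 0.00294% ± 0.00256 (log2 -3.24, SE 1.47, adjusted p = 0.157). DESeq2 called these 3 genera, with adjusted p-values of 0.0193, 0.0138 and 0.0472, and centred log ratios called UCG-002 and Subdoligranulum. PET library 6, with 1083575 counts, held the highest week 1 values of UCG-002 (0.0225%), Subdoligranulum (0.0443%) and Faecalibacterium (0.132%). The next week 1 libraries held 0.0105%, 0.0175% and 0.0233%. The part of that library in the DESeq2 and centred log ratio calls was not tested. In controls and in the interaction DESeq2 and centred log ratios called 0 member genera. Without stool control library 1 of day 28 edgeR called 1 member genus in controls and 2 in PET mice. The calls over all genera by DESeq2, by centred log ratios and in that fit are not given here. These member calls thus do not set the members apart. Both families were higher at day 28 in both arms by values that did not pass: Oscillospiraceae by 0.58 in controls (adjusted p = 0.452) and 0.62 in PET mice (adjusted p = 0.248), Ruminococcaceae by 0.56 (adjusted p = 0.496) and 0.35 (adjusted p = 0.652).

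Exposure was compared as PET against control within each site and time. No member family, genus or feature passed in any of the 5 comparisons with edgeR, DESeq2 or centred log ratios. Among genera 0 of 20 passed in stool at week 1 (0% of all genera), 0 of 21 in stool at day 28 (0%), 0 of 22 in colon (15.4%), 0 of 24 in lung (0%) and 0 of 22 in oral swabs (0%). At an unadjusted p under 0.05 edgeR gave 1, 0, 0, 4 and 0 genera, DESeq2 1, 1, 0, 3 and 0, and centred log ratios 1, 0, 0, 2 and 0. Among member features 0 passed at each site, where 2.35% of all tested colon features and 0% at the other sites passed. In edgeR 7, 4, 5, 7 and 2 member features had an unadjusted p under 0.05. The unadjusted counts over all genera or features are not given here, so these counts do not set the members apart. No described genus had PET and control libraries that did not overlap, and the share of all genera without overlap is not given here. The standard errors had medians over genera from 1.06 to 1.70 on the log2 scale. In simulated counts with the spread of these data, the colon, lung and oral swab fits called 0% of the genera changed 16-fold. A genus that did not pass here can therefore still differ between the arms.

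**Figure D5:**
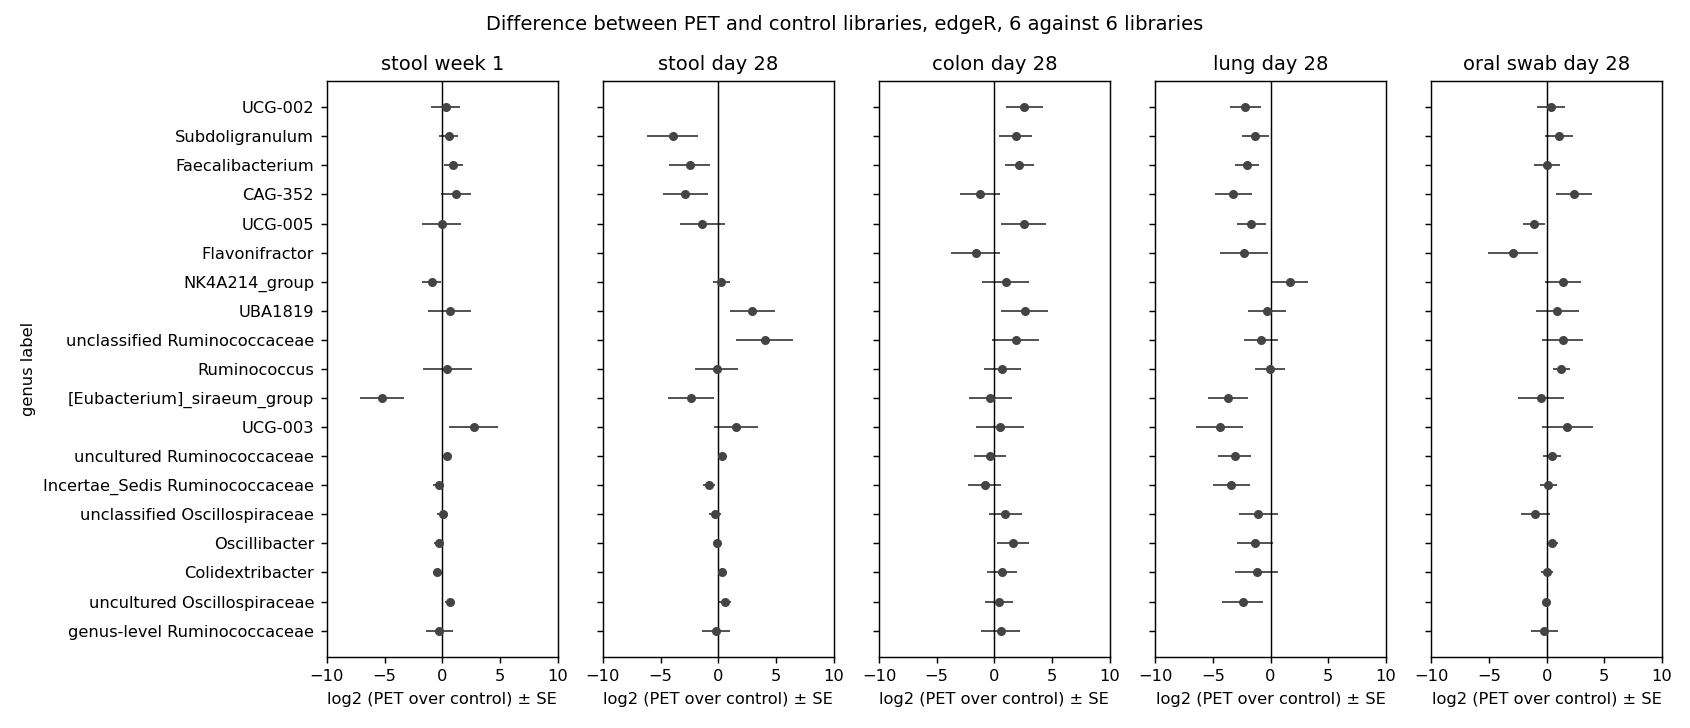
PET minus control difference (log2, edgeR) of the 19 member genus labels with a group mean of at least 0.05%, at each site and time where tested (points), with bars of 1 standard error worked back from the F statistic. None of these differences passed the threshold, and in lung nearly all points lie left of 0.

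In colon, where 22 of 143 genera passed over all bacteria, none was a member. Faecalibacterium ran from 0.0188 to 0.654% in control colons (median 0.0662%) and from 0.0172 to 6.72% in PET colons (median 0.205%), and its log2 difference was 2.14 (SE 1.27, adjusted p = 0.431). Of the 22 tested member genera 16 had values above 0 and 6 below, with a median of 0.70 beside 0.65 over all genera. The family difference of Ruminococcaceae, 1.26 (SE 0.88, adjusted p = 0.377), was 0.0044 without colon PET library 5. Oscillospiraceae differed by 0.74 (SE 0.92, adjusted p = 0.654).

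In lung 21 of the 24 tested genera had lower values in PET mice and 3 higher, with a median of -1.5004 beside -0.13 over all genera. The shares are not independent of one another and come from the same 12 libraries. Ruminococcaceae ran from 2.01 to 22.8% in control lungs (median 9.88%) and from 1.72 to 6.78% in PET lungs (median 4.66%), and its difference of -2.09 (SE 1.14, adjusted p = 0.505) was -0.75 without lung control library 1. Oscillospiraceae differed by -1.58 (SE 1.16, adjusted p = 0.824), and by -0.43 without lung control library 2. Faecalibacterium differed by -2.02 (SE 1.07, adjusted p = 0.550), and the smallest adjusted p of a member genus was 0.465. Control lungs had 21912 to 326834 counts per library and PET lungs 10543 to 133219, and the part of depth in these values was not tested.

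In stool at week 1 the lowest adjusted p belonged to the [Eubacterium]_siraeum_group, at 0.183% ± 0.283 in controls (5 of 6 libraries) and 0.00785% ± 0.0107 in PET mice (3 of 6), with a log2 difference of -5.22 (SE 1.93, adjusted p = 0.324). At day 28 it averaged 0.184% ± 0.316 and 0.0319% ± 0.0708. In lung it averaged 0.335% ± 0.583 and 0.0607% ± 0.0770 (log2 -3.69, SE 1.72, adjusted p = 0.465). The dominant stool genera were close between arms at day 28: Colidextribacter had 0.837% ± 0.0978 and 1.04% ± 0.238 (log2 0.35, SE 0.25, adjusted p = 0.803), and Oscillibacter 0.941% ± 0.275 and 0.842% ± 0.179. The uncultured Oscillospiraceae had 0.718% ± 0.341 and 1.44% ± 0.766 at week 1 (log2 0.65, SE 0.45, adjusted p = 0.777). In oral swabs the difference of Ruminococcaceae was 0.15 (SE 0.90, adjusted p = 0.938) and became -1.41 without oral swab PET library 2.

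The number of member features per library, thinned to 10083 counts, was 51.7 ± 19.4 in control and 66.9 ± 13.6 in PET stool at week 1 and 69.4 ± 11.2 and 71.1 ± 7.72 at day 28 (mean ± SD, n = 6). It was 34.4 ± 23.1 and 40.9 ± 20.4 in colon, 50.8 ± 13.7 and 34.4 ± 9.05 in lung, and 32.4 ± 3.68 and 29.6 ± 22.2 in oral swabs. Stool had the most features and oral swabs the fewest. These counts are given as a description without a test.

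Close relatives were looked at for comparison. Of 10 butyrate-producing genera outside both families, 5 were higher and 3 lower in lung than in stool, 3 higher and 2 lower in colon, and 4 higher and 5 lower in oral swabs. Of all tested genera 63.9% were higher and 17.5% lower in lung, 30.6% and 20% in colon, and 48.3% and 34.1% in oral swabs. Agathobacter, a butyrate producer of the human gut, was higher than in stool by 10.99 in lung and 7.91 in colon. It had no count in PET stool at day 28, so these sizes depend on how edgeR treats a group at 0. Lachnospiraceae_NK4A136_group, common in mice, was lower in lung than in stool by -3.21. Of 3 tested other families of Oscillospirales, 1 was higher and 1 lower in lung. For exposure 2 of these relatives passed, both in colon. They were 1 of 9 tested genera, where 15.4% of all tested genera passed, and 1 of 3 tested families, where 24.6% passed. Butyricimonas was listed at 0 in all 6 control colons and was found in 4 of 6 PET colons at up to 0.0215% (adjusted p = 0.0413). The [Eubacterium]_coprostanoligenes_group had a median of 0.00313% in control colons and 0.0170% in PET colons, with 1 PET library at 2.73% (log2 4.89, SE 1.62, adjusted p = 0.0253).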

How the data were processed

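Bacterial 16S rRNA amplicons (V3-V4, read length 300, paired) were sequenced in 60 libraries. The authors deposited 1 table of counts per feature and library, and, per the file headers, a QIIME 2 taxonomy table with the classifier confidence per feature as a fraction (0 to 1). Per the submitters' processing notes cutadapt and Bowtie2 were used and the mouse build GRCm39 is named; neither the denoiser nor the reference taxonomy is named there. Counts were summed by genus and family over prokaryote rows, and 619 features without a taxonomy line were left out. Tests were edgeR 4.0.16 (R 4.3.3) quasi-likelihood fits on all rows with at least 10 counts in all and a count in at least 3 libraries, with Benjamini-Hochberg adjustment (threshold 0.05). Exposure and time fits used TMM, and site fits used library totals. The standard errors (SE) of edgeR differences were worked back from the test, as the absolute log2 difference over the square root of its F statistic. Alternatives were TMMwsp, library totals, DESeq2 1.42.0, limma 3.58.1 on centred log ratios (0.5 added), other filters, confidence 0.9 and single arms. Further fits left out each library, or the 4 libraries whose label numbers begin with 106. These 4 were library 6 of each stool group of day 28 and lung control libraries 5 and 6. No PET lung library was among them. The fits were tested on simulated counts in which 10 genera changed 4-fold and 10 changed 16-fold. With the spread estimated from these data, the exposure fits called few of the 16-fold changes. They called 0% in colon, lung and oral swabs, 20% in stool at week 1 and 40% in stool at day 28. Of the 16-fold changes, the site fits called 30% (colon against stool), 10% (lung against stool), 20% (oral swab against stool) and 30% (lung against colon). They called 0% of the 4-fold changes. A genus that did not pass between sites can therefore still differ. With a fixed low spread (dispersion 0.1) the same fits called 100%. Genera were described where a group mean reached 0.05% or a comparison passed. Where a site had no count in any library of day 28, folds were set against 3 counts over the site. Where only 1 arm of a site was at 0, edgeR's log2 is printed, and its size depends on how edgeR treats a group at 0. Members and lists were chosen with earlier results of these data known. Intervals from counts would cover counting error only, since no molecular identifiers are named.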

Additional observations from a re-analysis of the deposited data

Results flagged for a closer look

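Combinations of a family or genus with a group of 6 libraries were checked for values that stood apart. In 66 of 173 combinations (38.2%), 1 library lay apart from the other 5 by more than the 95% critical value of Dixon's ratio. A chance rate of about 1 in 20 holds for normally distributed values. The values here are untransformed percent shares, which cannot be negative, so their chance rate is not known. Of the 66 flagged values, 65 were the highest of their group and 1 was the lowest. The same library can be flagged more than once. The genera of a library are not independent of one another, and no cause was tested. All values are percent of prokaryote counts.

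Oral swab PET library 2 stood apart for both families and 8 genera. It held 3.06% Oscillospiraceae and 9.43% Ruminococcaceae, with 4.28% Faecalibacterium, 2.90% Subdoligranulum, 1.48% UCG-002 and 1.06% Ruminococcus. Its other high values were 0.377% uncultured Ruminococcaceae, 0.169% UCG-005, 0.0933% Incertae_Sedis Ruminococcaceae and 0.0617% unclassified Oscillospiraceae. Oral swab PET library 5 was high for uncultured Oscillospiraceae (0.664%), Colidextribacter (0.301%) and genus-level Ruminococcaceae (0.0371%). Among control swabs, library 4 was high for Oscillospiraceae (0.582%), UCG-002 (0.319%) and uncultured Ruminococcaceae (0.0844%), library 6 for Subdoligranulum (0.451%) and unclassified Oscillospiraceae (0.0386%), and library 2 for Incertae_Sedis Ruminococcaceae (0.0316%).

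Colon PET library 5 held 9.01% Ruminococcaceae, with 6.72% Faecalibacterium, 1.37% Subdoligranulum, 1.12% UCG-002, 0.391% Ruminococcus, 0.373% UCG-005 and 0.129% [Eubacterium]_siraeum_group. Colon control library 2 was high for Faecalibacterium (0.654%), Subdoligranulum (0.178%), UCG-002 (0.122%) and CAG-352 (0.0919%). Colon control library 3 was high for Incertae_Sedis Ruminococcaceae (0.451%) and unclassified Oscillospiraceae (0.323%), and control library 1 for the [Eubacterium]_siraeum_group (0.137%). Colon PET library 2 was high for unclassified Oscillospiraceae (0.584%) and genus-level Ruminococcaceae (0.246%), and PET library 6 for uncultured Oscillospiraceae (2.10%).

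Lung control library 1 was high for uncultured Ruminococcaceae (4.41%), CAG-352 (3.71%), UCG-005 (1.99%) and the [Eubacterium]_siraeum_group (1.51%). Lung control library 2 was high for Faecalibacterium (10.04%) and UCG-003 (1.11%), and control library 5 for Incertae_Sedis Ruminococcaceae (0.982%), Oscillibacter (0.736%) and Flavonifractor (0.419%). In PET lungs, library 2 was high for UCG-002 (8.71%), library 5 for Colidextribacter (0.495%) and library 6 for unclassified Oscillospiraceae (0.307%). Lung PET library 4 held 5.56% NK4A214_group and had the low value of Subdoligranulum, 0.116%.

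In stool at day 28, control library 6 was high for Oscillospiraceae (6.41%), uncultured Oscillospiraceae (4.27%), Incertae_Sedis Ruminococcaceae (0.970%), the [Eubacterium]_siraeum_group (0.819%) and Harryflintia (0.0549%). Control library 1 was high for Faecalibacterium (0.0893%) and Anaerotruncus (0.0570%), and control library 5 for genus-level Ruminococcaceae (0.468%). PET library 4 was high for UCG-003 (0.437%), PET library 1 for Harryflintia (0.0857%) and PET library 2 for UCG-005 (0.0104%). In stool at week 1, PET library 6 was high for Faecalibacterium (0.132%) and Subdoligranulum (0.0443%) and PET library 5 for Anaerotruncus (0.0368%), while control library 6 was high for genus-level Ruminococcaceae (0.236%) and control library 5 for Ruminococcus (0.223%).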

How the results depend on the processing

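No paired analysis was possible because every library has a number of its own that ties it to no other library. The causes of the changes below were not tested. Counts of genera called below are counts of member genera. The calls over all genera in the same settings are not given here, so these counts do not set the members apart. For PET against control, where no value passed, the Ruminococcaceae difference turned in stool at week 1 to -0.12 with DESeq2 and -0.12 without the low-count filter, and in stool at day 28 to -0.36 (TMMwsp), -0.32 (library totals), -0.10 (no filter), -0.24 (stricter filter), -0.24 (confidence 0.9) and -0.10 (without the 4 libraries that share a label number). In colon centred log ratios gave -0.11 for Oscillospiraceae and -0.50 for Ruminococcaceae. In oral swabs Oscillospiraceae turned to -0.10 (DESeq2), -0.18 (centred log ratios) and -0.13 (confidence 0.9), and Ruminococcaceae to -0.017 (TMMwsp), -0.23 (DESeq2) and -0.28 (centred log ratios). For time in PET stool DESeq2 called 3 member genera and centred log ratios 2; the interaction turned to -0.16 for Oscillospiraceae (library totals) and 0.088 for Ruminococcaceae (without the 4 libraries that share a label number). Between colon and stool Oscillospiraceae no longer passed with TMM (-0.29), reduced totals (-0.43), controls alone (-2.02) or PET alone (-1.25), while Ruminococcaceae passed with TMM (2.09) and reduced totals (1.70) and turned to -1.59 (centred log ratios), -0.081 (confidence 0.9) and -0.97 (controls alone); centred log ratios called 16 genera and controls alone 0. Between lung and stool Oscillospiraceae gave -0.049 (TMM), -2.79 (DESeq2), -4.66 (centred log ratios) and -0.29 (PET alone), Ruminococcaceae -0.31 and -1.73 (DESeq2, centred log ratios), NK4A214_group -1.44 (centred log ratios) and UBA1819 -5.02 (confidence 0.9), and PET alone called 10 genera. Between oral swab and stool Oscillospiraceae gave 0.055 (TMM) and -0.63 (reduced totals), and Ruminococcaceae 2.84 (TMM), 1.97 (reduced totals), 0.013 (DESeq2), 0.83 (PET alone) and -2.55 (centred log ratios); TMM gave Harryflintia 0.031, uncultured Oscillospiraceae 0.30 and uncultured Ruminococcaceae 0.49, and controls alone called 11 genera and PET alone 10. Between lung and colon Oscillospiraceae gave 0.17 (TMM), 0.60 (reduced totals), -0.44 (DESeq2), -0.63 (centred log ratios) and 0.96 (PET alone), and Ruminococcaceae 0.95, 0.93, 0.30, 0.20 and 1.23 in that order; TMM called 10 genera, DESeq2 8, centred log ratios 6, controls alone 9 and PET alone 2, and Anaerofilum gave -0.18 and Negativibacillus -0.56 with centred log ratios and UBA1819 -1.40 at confidence 0.9. Leaving out each library gave these ranges. PET against control: Oscillospiraceae 0.14 to 0.42 and Ruminococcaceae -0.10 to 0.34 (stool week 1), 0.20 to 0.73 and -0.46 to 0.21 (stool day 28), 0.42 to 1.35 and 0.0044 to 1.32 (colon), -2.68 to -0.43 and -2.37 to -0.75 (lung), -0.52 to 0.23 and -1.41 to 1.08 (oral swab), with 0 genera called each time. Time: 0.24 to 0.96 and 0.03 to 0.89 with 0 to 1 genera (control), 0.37 to 0.85 and 0.03 to 0.48 with 0 to 2 (PET), -0.11 to 0.39 and -0.47 to 0.32 with 0 (interaction). Site: -1.93 to -1.51 and -0.86 to 0.19 with 5 to 11 genera (colon against stool), -0.11 to 0.32 and 2.47 to 2.83 with 16 to 19 (lung against stool), -3.48 to -2.75 and -1.56 to 0.084 with 16 to 19 (oral swab against stool), 1.52 to 2.13 and 2.45 to 3.52 with 12 to 16 (lung against colon). At full depth the member features per library were 99.2 (PET stool week 1), 95.5 and 93.7 (control and PET stool day 28) and 55.8 (control oral swab). For the 59 genus differences past the threshold, 375 alternative values kept call and direction, 8 turned and the others lost the call; of the fits without 1 library 1341 kept it, 66 lost it and 0 turned.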
